A study of Mus musculus with 6 samples.

Results

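Smooth muscle, pericyte and stromal lineage genes were followed in As4.1 cells, a mouse line that makes renin and was derived from a kidney tumour. The set holds 38 genes for contractile and cytoskeletal proteins, surface proteins of pericytes and transcription factors of the renal stroma. They were chosen by name, with earlier results of these data known. All 38 were represented by probe sets annotated to that gene alone, 79 in all, out of 18193 genes and 45037 probe sets on the array outside its control probes. A gene was read by its brightest probe set, and 30 of the 38 were bright enough to be tested.

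The cells had been treated with interleukin, with hydrogen peroxide or with vehicle, in 2 separate cultures and on 2 arrays for each of the 3 groups. The labels do not name the interleukin, and they give no dose and no length of treatment. All 6 cultures came from the same cell line, so the p-values below measure only the spread between cultures.

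Smooth muscle cells contract when myosin pulls on filaments of alpha actin. The genes of this apparatus are switched on largely by serum response factor (SRF), which binds DNA elements named CArG boxes together with coactivators of the myocardin family. Pericytes, which wrap capillaries, share part of this programme and carry receptors for platelet-derived growth factor. In the kidney, renin cells, vascular smooth muscle cells, pericytes and mesangial cells descend from stromal progenitors that express Foxd1.

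Signal was in the arbitrary units of the MAS5 algorithm, and array medians lay between 192.2 and 232.3. A gene is called here when its adjusted p, from limma and adjusted by the Benjamini-Hochberg method over 22519 tested probe sets, was under 0.05. Replicate arrays correlated at 0.9808 with interleukin, 0.9843 with hydrogen peroxide and 0.9871 with vehicle across log2 signals, against 0.9535 to 0.9753 between arrays of different groups. Beta-actin's ratio of 3′ to 5′ signal, which depends on RNA integrity and labelling, came to 1.46 and 1.55 with interleukin, 1.35 and 1.32 with hydrogen peroxide, and 1.22 and 1.26 with vehicle. The groups did not overlap in this ratio. The ratio of Tfrc was 3.05 and 3.95 with interleukin, 3.54 and 2.30 with hydrogen peroxide, and 1.85 and 2.14 with vehicle. That of Pcx was 2.30 and 2.46, 2.89 and 2.03, and 1.66 and 1.59 in the same order. Gapdh ranged from 0.8251 to 0.8725 over all arrays. The part of these ratios in the results was not tested.

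Markers of other cell types were mostly too dim to test. Of 11 endothelial markers 2, Kdr and Plvap, were bright enough to test, and the other 9, Pecam1, Cdh5 and Vwf among them, were not. The summed signal of all 11 was 9341.8 and 13282.2 with interleukin, 12624.9 and 11587.3 with hydrogen peroxide, and 14592.6 and 17190.2 with vehicle. The 9 leukocyte markers, of which 3 were tested and Ptprc was not, summed to 6627.4 and 7418.6 with interleukin, 4792.2 and 4569.3 with hydrogen peroxide, and 3905.9 and 3921.5 with vehicle. Striated muscle markers, 2 of 14 tested, summed to 1280.1 and 1758.9 with interleukin, 1107.7 and 1226.3 with hydrogen peroxide, and 1066.1 and 1084.7 with vehicle. With interleukin Cd68 (log2 change 1.25, adjusted p = 0.00851) and Cd14 (0.90, adjusted p = 0.00130) of the leukocyte list were called higher and the endothelial Kdr lower (-0.60, adjusted p = 0.0194), and with hydrogen peroxide Cd68 was called higher (1.04, adjusted p = 0.0419). The leukocyte and striated muscle sums were highest with interleukin and lowest with vehicle, and the part of these markers in the results was not tested. Epithelial and tubule markers, 2 of 11 tested, summed to 1643.9 and 1825.4 with interleukin, 1455.7 and 1250.0 with hydrogen peroxide, and 1833.2 and 1889.9 with vehicle. The single podocyte marker tested out of 5 on the array was Synpo, an actin-associated protein that other contractile cells also express, and the podocyte list summed to 5004.6 and 6759.9 with interleukin, 4020.5 and 3727.2 with hydrogen peroxide, and 2764.5 and 3319.9 with vehicle. Synpo was called higher with interleukin (0.97, adjusted p = 0.00274). Synpo (log2 change 0.63) and Cd14 (0.79) were also called higher with interleukin directly against hydrogen peroxide. The podocyte sum, too, was highest with interleukin and lowest with vehicle, and its part in the results was not tested. In bulk RNA, fewer cells of a type and less RNA per cell cannot be told apart.

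Myh11, Cnn1 and Myocd, which define mature smooth muscle, were too dim across the 6 arrays to be tested. Myh11, the smooth muscle myosin heavy chain, gave a signal of 29.5 and 136.1 with interleukin, 26.4 and 7.6 with hydrogen peroxide, and 22.6 and 29.2 with vehicle. Cnn1, the smooth muscle calponin, gave 117.4 and 99.1 with interleukin, 186.8 and 63.0 with hydrogen peroxide, and 203.5 and 315.7 with vehicle. Both vehicle arrays of Cnn1 were above 193.7, the level needed for testing. Myocd, which encodes the coactivator myocardin, gave 13.3 and 6.0 with interleukin, 11.3 and 55.9 with hydrogen peroxide, and 7.9 and 6.5 with vehicle. These 3 genes, together with Actg2 (enteric smooth muscle actin), Lmod1 (the filament nucleator leiomodin), Des (desmin), Mcam (an adhesion molecule of pericytes and endothelium) and Tcf21 (a stromal transcription factor), lay below the level needed for testing, a geometric mean signal of 193.7. Their signals spanned 6.0 to 387.7, so the label of smooth muscle rests here on Acta2, Tagln, Smtn, Myl9 and genes that many other cells share. When all probe sets were tested, 0 of these 8 genes were called by limma in any comparison, with 1 at an unadjusted p under 0.05 for interleukin against vehicle, 0 for hydrogen peroxide against vehicle and 2 for interleukin against hydrogen peroxide. The 2 tested genes nearest above the level were Cspg4 and Synpo2, at geometric means of 230.2 and 268.2, and the nearest below were Mcam and Tcf21, at 179.5 and 169.4. Among the tested members, Cspg4 with interleukin was the single group mean below it.

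**Figure D1:**
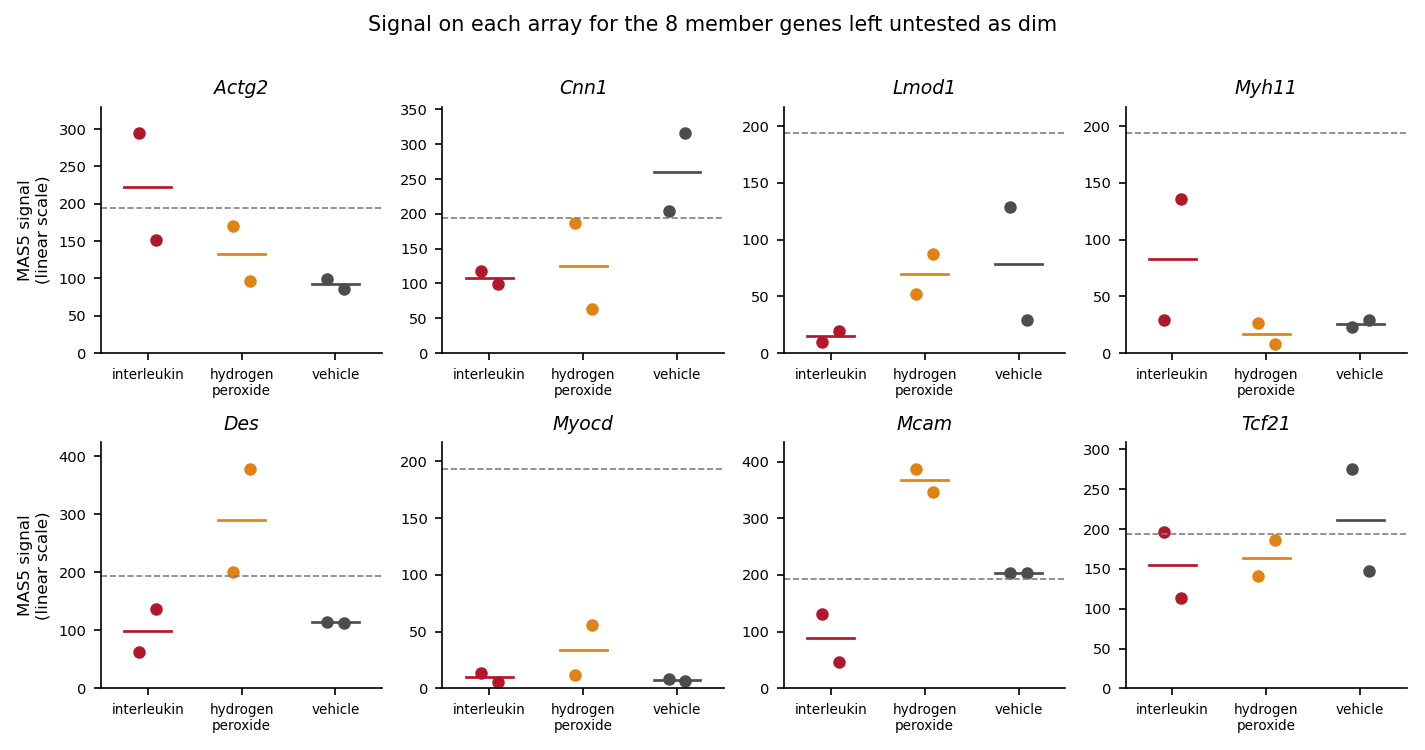
MAS5 signal (arbitrary units, linear scale from 0) on each array for the 8 genes left untested as dim, with interleukin, hydrogen peroxide and vehicle from left to right, points for the 2 cultures, short bars for their mean and a dashed line at 193.7, the lowest tested geometric mean. Myocd stays at or below 55.9 on every array, and the hydrogen peroxide points of Mcam are 387.7 and 345.8, above the line.

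Interleukin changed 13 of the 30 tested genes (43.3%), against 16.4% of all 10892 genes tested on the array. Higher were 7: Acta2, Tagln, Cald1, Tpm2, Mkl1, Pdgfra and Pdgfrb. Lower were 6: Csrp1, Csrp2, Crip1, Crip2, Vcl and Foxd1. Over all genes, 9.78% were called higher and 6.61% lower. The members were chosen with earlier results of these data known, so their larger share is not an independent result. The median log2 change of the 30 genes was 0.07, against 0.03 over all tested genes. Members were bright, and bright genes were called more often: among genes at least as bright as the median member 21.3% were called with interleukin, against 8 of the 15 members above that level. The other 5 calls were among the 15 dimmer members.

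These calls rest on 2 arrays a group. Without vehicle array 1 the counts were 3 higher and 0 lower, without vehicle array 2 they were 3 and 1, and without interleukin array 1 they were 4 and 3. In a fit whose variance did not follow signal, 12 of the 13 calls were lost, with adjusted p from 0.0501 (Pdgfrb) to 0.186 (Cald1), and Crip2 was kept. Testing all probe sets also ended the calls of Cald1 (adjusted p = 0.0998), Mkl1 (0.0557), Csrp1 (0.0891) and Csrp2 (0.0941). No call changed its direction in any of these fits.

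**Figure D2:**
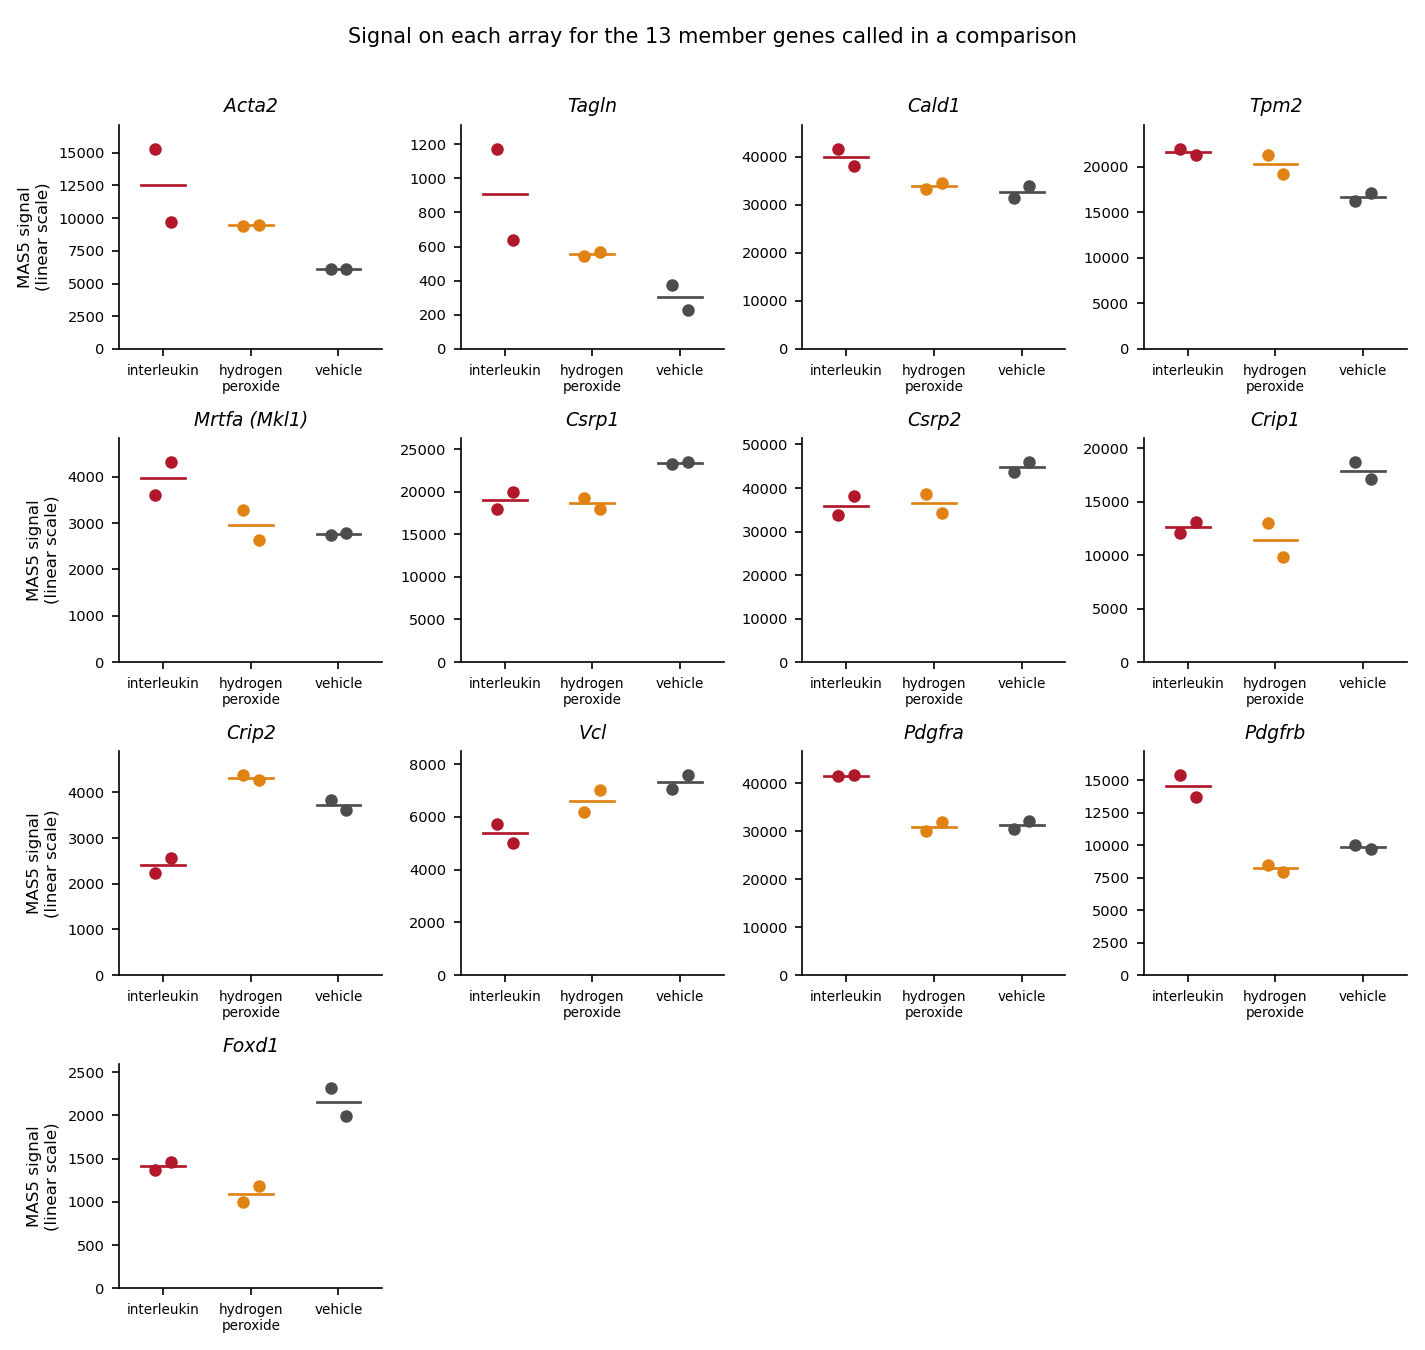
MAS5 signal (arbitrary units, linear scale from 0) on each array for the 13 genes called in a comparison, with interleukin, hydrogen peroxide and vehicle from left to right, points for the 2 cultures and short bars for their mean. Acta2 with interleukin, at 15280.4 and 9721.5, lies above vehicle at 6147.1 and 6112.6, while Crip2 with interleukin, at 2228.7 and 2573.9, lies below the other 4 arrays.

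Among the contractile actins and actin-binding proteins, interleukin raised 4 of 9 tested genes and lowered 0. Of all genes, 9.78% were called higher and 6.61% lower. Acta2, the alpha actin of smooth muscle, gave 15280.4 and 9721.5 with interleukin, 9378.7 and 9493.1 with hydrogen peroxide, and 6147.1 and 6112.6 with vehicle. These values come from the brightest of 3 probe sets, whose name marks shared sequence. The others, at geometric means of 28.8 and 25.5, were too dim to test. Every treated array of the brightest was above both vehicle arrays. The 2 interleukin cultures differed more from each other than the 2 cultures of either other group. The fitted log2 change with interleukin was 0.99 ± 0.17 (SE), or 1.99-fold (adjusted p = 0.00305), and it was called without each array in turn. With hydrogen peroxide it was 0.62 ± 0.17 and missed the threshold (adjusted p = 0.0573), and it was called without interleukin array 1 (0.00436) or array 2 (0.00461). Interleukin against hydrogen peroxide gave 0.37 (adjusted p = 0.214), which was called without interleukin array 2 (0.00536).

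Tagln, which encodes the actin-binding protein SM22 alpha, gave 1171.2 and 640.4 with interleukin, 541.6 and 570.1 with hydrogen peroxide, and 376.1 and 229.3 with vehicle. As for Acta2, interleukin array 1 was the highest and both vehicle arrays were the lowest. The log2 change with interleukin was 1.56 ± 0.32 (2.95-fold, adjusted p = 0.00892), the largest among the 30 genes. The call was lost without vehicle array 2 (adjusted p = 0.0794) and without interleukin array 1 (0.0721). With hydrogen peroxide the log2 change was 0.92 (adjusted p = 0.126).

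Cald1 and Tpm2, which encode caldesmon and beta tropomyosin, both regulators of actin filaments, rose less. Cald1 gave 41589.2 and 38127.0 with interleukin, 33360.9 and 34513.9 with hydrogen peroxide, and 31439.5 and 33974.6 with vehicle, so that both interleukin arrays were above the other 4. Its log2 change with interleukin was 0.29 ± 0.08 (1.22-fold, adjusted p = 0.0310), and the call was lost without vehicle array 1 (adjusted p = 0.223), vehicle array 2 (0.0791) or interleukin array 1 (0.132). Tpm2 gave 21972.8 and 21263.0 with interleukin, 21298.4 and 19272.1 with hydrogen peroxide, and 16241.7 and 17107.6 with vehicle. All treated arrays of Tpm2 were above both vehicle arrays. Interleukin raised it by 0.37 ± 0.08 on the log2 scale (1.3-fold, adjusted p = 0.0131), and the call was lost without vehicle array 1 (adjusted p = 0.115), vehicle array 2 (0.0612) or interleukin array 1 (0.0522). Under hydrogen peroxide its log2 change was 0.28 (adjusted p = 0.0782), which was called after quantile normalization (0.0290).

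The other 5 tested genes of this group, Cnn2, Cnn3, Smtn, Tpm1 and Tpm4, were called in no comparison. Their log2 changes with interleukin lay between -0.40 (Smtn, smoothelin, adjusted p = 0.107) and 0.09 (Cnn2, a calponin found in many cell types, adjusted p = 0.617). Smtn was also the lowest of them with hydrogen peroxide, at -0.46 (adjusted p = 0.110). Both interleukin arrays and both hydrogen peroxide arrays of Smtn lay below its vehicle arrays, while Cnn2, Cnn3, Tpm1 and Tpm4 were within 0.09 log2 units of 0 with interleukin.

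**Figure D3:**
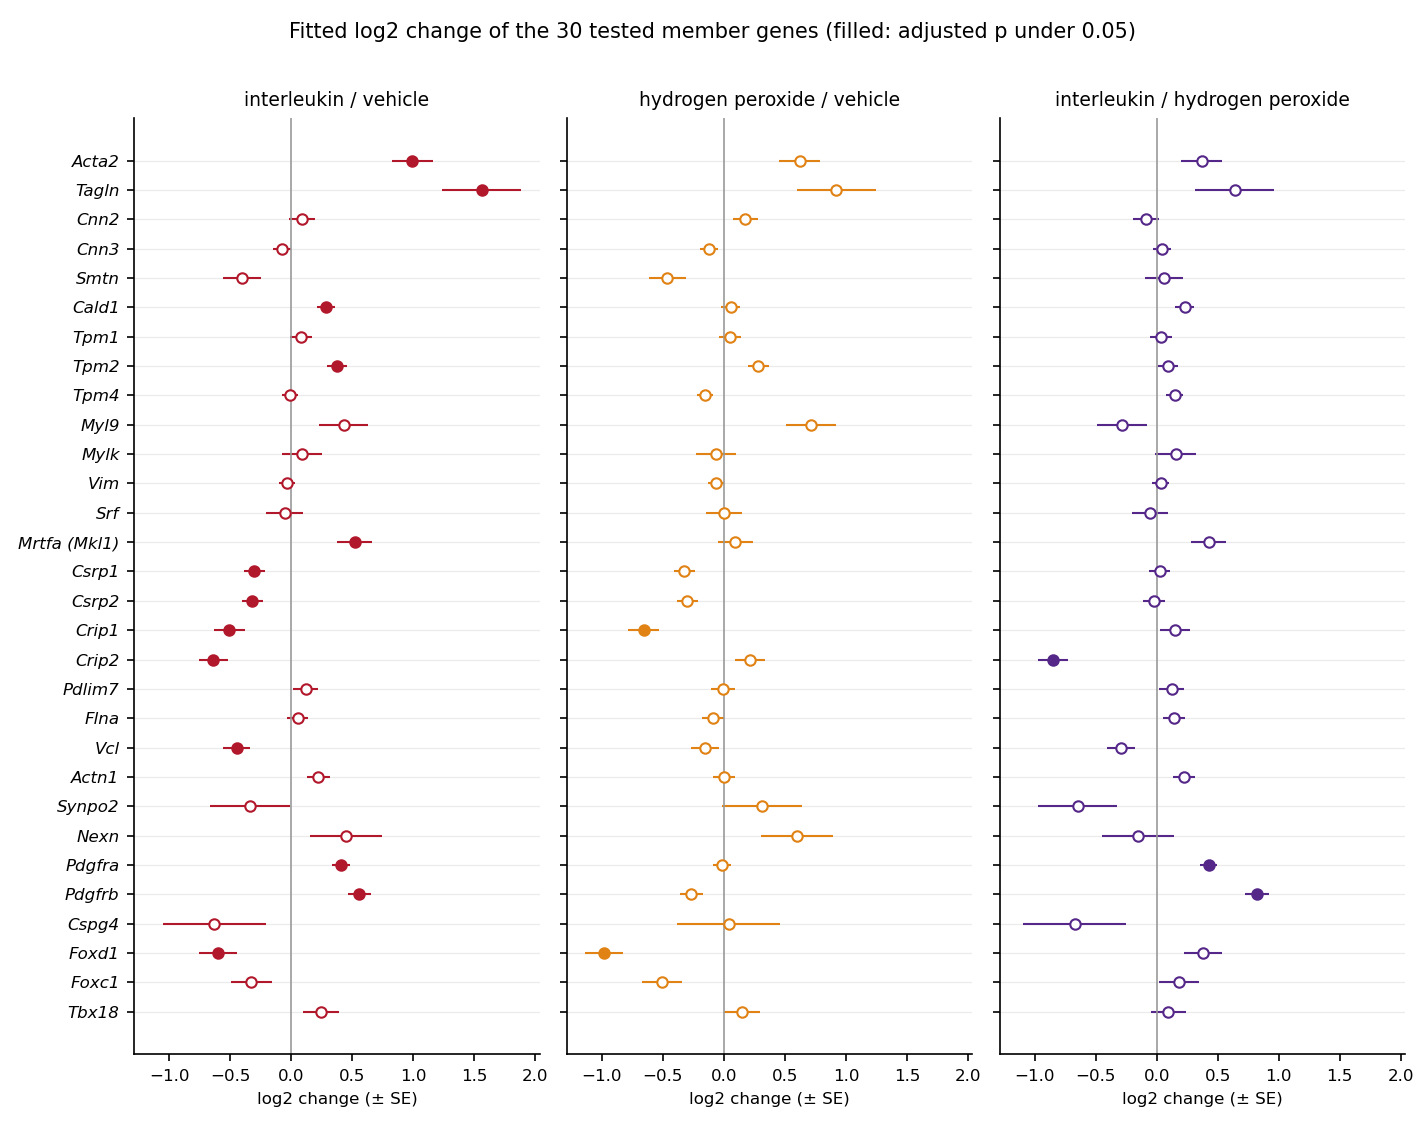
Fitted log2 change, with standard error as horizontal bars, of the 30 tested genes (rows) for interleukin over vehicle, hydrogen peroxide over vehicle and interleukin over hydrogen peroxide, from left to right. Filled points, called at an adjusted p under 0.05, number 13, 2 and 3, and Tagln at 1.56 is farthest to the right with interleukin.

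Of SRF and its coactivators, Srf was called in no comparison and Mkl1 with interleukin. Srf gave 1597.8 and 1868.5 with interleukin, 1809.2 and 1781.6 with hydrogen peroxide, and 1659.9 and 1940.5 with vehicle. The 3 groups overlapped, with a log2 change of -0.05 ± 0.15 for interleukin (adjusted p = 0.842) and of 0.0005 ± 0.148 for hydrogen peroxide (adjusted p = 0.999). Mkl1, now named Mrtfa, encodes a coactivator of SRF that is held in the cytoplasm by free actin, and it gave 3614.6 and 4316.4 with interleukin, 3272.9 and 2641.5 with hydrogen peroxide, and 2736.5 and 2778.4 with vehicle. Both interleukin arrays were above the other 4 arrays. Interleukin raised Mkl1 by 0.52 ± 0.14 on the log2 scale (1.43-fold, adjusted p = 0.0330), and the call was lost without vehicle array 1 (adjusted p = 0.157), vehicle array 2 (0.141) or interleukin array 2 (0.148). Hydrogen peroxide gave a log2 change of 0.09 (adjusted p = 0.754).

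Promoter sequences, from RefSeq on GRCm38.p6, were listed for 31 of the 38 genes. None was listed for Tagln, Myh11, Myocd, Actg2, Csrp2, Nexn and Pdgfrb, which were therefore not searched. The 250 bases before the start of transcription were searched on both strands for the CArG box, for a CArG box with 1 G or C in its core of A and T, and for the MCAT element CATTCC, to which TEAD factors bind. The exact CArG box was in 4 of the 31 (Cnn2, Myl9, Srf and Vcl), against 1.62% of all 27025 genes with a listed promoter. The looser form was in 8 of the 31, the same 4 and Acta2, Crip1, Mkl1 and Tbx18, against 9.78% of genes. MCAT was in 8 of the 31 (Acta2, Cald1, Flna, Lmod1, Mylk, Smtn, Tpm1 and Vcl), against 14.4% of genes. A match is a match of letters and not a measured binding site. Called and uncalled genes, and genes called higher and lower, are both among those with a match.

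These 4 windows are shown because they carry the same kind of element in genes that differed with interleukin: Acta2 rose, Vcl fell, and Srf and Myl9 were not called. Capitals mark a CArG box in exact or looser form, or an MCAT element, 5′ to 3′ on the strand of the gene. Acta2 (chr19:34255374-34255623, minus strand) has 2 looser CArG boxes, 84 to 75 and 34 to 25 bases before the start, and an MCAT element 146 to 141 bases before it. Vcl (chr14:20929148-20929397, plus strand) has an exact CArG box 227 to 218 bases and an MCAT element 143 to 138 bases before the start. Srf (chr17:46556163-46556412, minus strand) has 2 exact CArG boxes, 82 to 73 and 62 to 53 bases before the start. Myl9 (chr2:156775214-156775463, plus strand) has an exact box 161 to 152 and a looser one 99 to 90 bases before the start.
Acta2: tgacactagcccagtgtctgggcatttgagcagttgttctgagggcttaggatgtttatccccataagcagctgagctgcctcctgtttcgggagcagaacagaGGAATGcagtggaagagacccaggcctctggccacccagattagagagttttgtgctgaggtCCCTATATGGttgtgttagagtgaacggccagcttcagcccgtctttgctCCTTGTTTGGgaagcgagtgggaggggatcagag
Vcl: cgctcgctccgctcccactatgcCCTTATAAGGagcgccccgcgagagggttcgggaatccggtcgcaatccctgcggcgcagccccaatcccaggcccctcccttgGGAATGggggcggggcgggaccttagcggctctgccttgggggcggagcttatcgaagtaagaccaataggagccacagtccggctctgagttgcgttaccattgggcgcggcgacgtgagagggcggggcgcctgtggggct
Srf: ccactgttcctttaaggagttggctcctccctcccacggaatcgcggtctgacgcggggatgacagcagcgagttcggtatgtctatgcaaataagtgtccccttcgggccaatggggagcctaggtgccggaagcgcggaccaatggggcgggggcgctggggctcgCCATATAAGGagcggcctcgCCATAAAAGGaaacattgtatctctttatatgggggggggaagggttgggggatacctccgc
Myl9: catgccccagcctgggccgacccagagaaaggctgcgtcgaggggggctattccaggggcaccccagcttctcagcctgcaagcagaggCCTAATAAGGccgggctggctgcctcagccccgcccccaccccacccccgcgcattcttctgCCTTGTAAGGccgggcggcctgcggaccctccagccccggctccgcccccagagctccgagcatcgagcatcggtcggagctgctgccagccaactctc

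Of the myosin genes, Myl9 encodes the regulatory light chain of smooth muscle myosin and Mylk the kinase that phosphorylates it. Myl9 gave 1753.0 and 1152.4 with interleukin, 1853.6 and 1613.1 with hydrogen peroxide, and 1132.2 and 984.7 with vehicle. All treated arrays were above both vehicle arrays, but neither change was called: the log2 change was 0.43 ± 0.20 with interleukin (adjusted p = 0.186) and 0.71 ± 0.20 with hydrogen peroxide (adjusted p = 0.0692). Both depended on single arrays. The change with hydrogen peroxide was called without interleukin array 1 (adjusted p = 0.0268) or array 2 (0.0263), and the change with interleukin without interleukin array 2 (0.0337). Mylk overlapped between all groups, with log2 changes of 0.09 (adjusted p = 0.770) with interleukin and -0.07 (adjusted p = 0.851) with hydrogen peroxide. Vim, the intermediate filament vimentin of mesenchymal cells, gave -0.03 ± 0.07 with interleukin (adjusted p = 0.783) and -0.07 ± 0.07 with hydrogen peroxide (adjusted p = 0.616), small changes beside those of Acta2.

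Interleukin lowered 4 of the 5 tested LIM and PDZ proteins and raised 0, beside 6.61% of all genes called lower and 9.78% higher. Csrp1 and Csrp2 encode LIM-only proteins that bridge SRF and GATA factors and are abundant in smooth muscle. Csrp1 gave 17944.3 and 20010.9 with interleukin, 19320.2 and 17990.7 with hydrogen peroxide, and 23246.6 and 23474.2 with vehicle. Csrp2 gave 33776.1 and 38080.2 with interleukin, 38643.1 and 34289.3 with hydrogen peroxide, and 43660.4 and 45947.9 with vehicle. For both genes every treated array was below both vehicle arrays, and the 2 treatments overlapped.

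Interleukin lowered Csrp1 by a log2 change of -0.30 ± 0.09 (1.23-fold lower, adjusted p = 0.0372) and Csrp2 by one of -0.32 ± 0.09 (1.25-fold lower, adjusted p = 0.0301). Without vehicle array 1, vehicle array 2 or interleukin array 1, Csrp1 missed the threshold at adjusted p of 0.162, 0.182 and 0.150. In the same fits Csrp2 missed it at 0.101, 0.187 and 0.147. With hydrogen peroxide the log2 changes were of similar size, -0.33 ± 0.09 for Csrp1 (adjusted p = 0.0530) and -0.30 ± 0.09 for Csrp2 (adjusted p = 0.0716), and were not called. Csrp1 was called with hydrogen peroxide without interleukin array 1 (adjusted p = 0.0312) or array 2 (0.0333), and Csrp2 without interleukin array 1 (0.0476). Centring on the 75th percentile ended the interleukin call of Csrp1 (0.0507) and called its change with hydrogen peroxide (0.0438), and the stricter filter also called the hydrogen peroxide change (0.0472).

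Crip1, a small LIM protein of the cysteine-rich family, gave 12115.6 and 13099.7 with interleukin, 13046.5 and 9870.8 with hydrogen peroxide, and 18698.6 and 17117.6 with vehicle. It was lower on all 4 treated arrays and was called under both treatments, with a log2 change of -0.51 ± 0.13 for interleukin (1.42-fold lower, adjusted p = 0.0208) and -0.66 ± 0.13 for hydrogen peroxide (1.58-fold lower, adjusted p = 0.0152). These changes share the vehicle arrays. The interleukin call was lost without vehicle array 1 (adjusted p = 0.149), vehicle array 2 (0.0705) or interleukin array 1 (0.10), and the hydrogen peroxide call without vehicle array 1 (0.121), vehicle array 2 (0.0754) or hydrogen peroxide array 2 (0.0705).

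Crip2, its relative expressed in vascular smooth muscle, separated the treatments. It gave 2228.7 and 2573.9 with interleukin, 4375.6 and 4261.8 with hydrogen peroxide, and 3843.7 and 3611.9 with vehicle. The interleukin arrays were the lowest and the hydrogen peroxide arrays the highest, with no overlap between any groups. The log2 change with interleukin was -0.64 ± 0.12 (1.56-fold lower, adjusted p = 0.00566), lost without vehicle array 1 (0.0642). That with hydrogen peroxide was 0.21 (adjusted p = 0.341). Interleukin directly against hydrogen peroxide gave -0.85 ± 0.12 (1.80-fold lower, adjusted p = 0.00165), a call kept under all alternatives tried, the fit without a variance trend included (adjusted p = 0.0319). Pdlim7, a PDZ and LIM scaffold on actin filaments, was the 1 gene of the group called in no comparison, at 0.12 with interleukin (adjusted p = 0.478) and -0.01 with hydrogen peroxide (adjusted p = 0.980).

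Among the adhesion and crosslinking proteins, 1 of 5 tested genes was called with interleukin and 0 with hydrogen peroxide. Of all genes, 16.4% and 6.99% were called, in the same order. Vcl, which encodes vinculin, the link between integrin adhesions and actin, gave 5743.0 and 5007.7 with interleukin, 6179.7 and 7011.5 with hydrogen peroxide, and 7065.3 and 7581.0 with vehicle. The groups did not overlap, and interleukin was lowest. Its log2 change with interleukin was -0.45 ± 0.11 (1.36-fold lower, adjusted p = 0.0235), lost without vehicle array 1 (0.0884), vehicle array 2 (0.168) or interleukin array 2 (0.0995). With hydrogen peroxide it was -0.15 (adjusted p = 0.475). Flna, Actn1, Synpo2 and Nexn, which encode a filamin, an alpha actinin, a synaptopodin relative and nexilin, were not called, with log2 changes from -0.34 (Synpo2, adjusted p = 0.532) to 0.45 (Nexn, adjusted p = 0.345) with interleukin and from -0.09 (Flna, adjusted p = 0.60) to 0.60 (Nexn, adjusted p = 0.263) with hydrogen peroxide.

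Both receptors for platelet-derived growth factor rose with interleukin. They were 2 of the 3 tested pericyte surface genes, beside 9.78% of all genes called higher. The rest of this group did not rise. Cspg4, not called, had a log2 change of -0.63 with interleukin. Mcam, too dim to test, gave 130.9 and 45.8 with interleukin, 387.7 and 345.8 with hydrogen peroxide, and 204.2 and 203.8 with vehicle. Pdgfra, the alpha receptor of stromal fibroblasts, gave 41443.6 and 41617.9 with interleukin, 30005.1 and 31870.3 with hydrogen peroxide, and 30469.7 and 32115.5 with vehicle. The interleukin arrays stood above the other 4, which overlapped. The log2 change against vehicle was 0.41 ± 0.07 (1.33-fold, adjusted p = 0.00373), lost without vehicle array 1 (0.0506), and against hydrogen peroxide it was 0.43 ± 0.07 (1.34-fold, adjusted p = 0.00467), which was lost without the variance trend (0.114). Hydrogen peroxide against vehicle gave -0.02 ± 0.07 (adjusted p = 0.923).

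Pdgfrb, the beta receptor that marks pericytes and mesangial cells, gave 15398.5 and 13740.4 with interleukin, 8500.5 and 7955.5 with hydrogen peroxide, and 10045.2 and 9734.6 with vehicle. The interleukin arrays were the highest and the hydrogen peroxide arrays the lowest, without overlap. Interleukin raised it by 0.56 ± 0.10 on the log2 scale against vehicle (1.47-fold, adjusted p = 0.00327) and by 0.82 ± 0.10 against hydrogen peroxide (1.77-fold, adjusted p = 0.000416). Both calls were kept without each array in turn. Hydrogen peroxide against vehicle gave -0.27 (adjusted p = 0.133). Cspg4, the pericyte proteoglycan NG2, gave 123.7 and 234.5 with interleukin, 314.1 and 234.1 with hydrogen peroxide, and 211.2 and 329.9 with vehicle, and overlapped between all groups (adjusted p = 0.351 with interleukin and 0.972 with hydrogen peroxide).

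Foxd1, the transcription factor of stromal progenitors, fell under both treatments. It gave 1372.5 and 1458.5 with interleukin, 1000.5 and 1184.9 with hydrogen peroxide, and 2313.4 and 1992.1 with vehicle. All treated arrays were below both vehicle arrays, and hydrogen peroxide was lowest. The log2 change was -0.60 ± 0.16 with interleukin (1.52-fold lower, adjusted p = 0.0257) and -0.98 ± 0.16 with hydrogen peroxide (1.97-fold lower, adjusted p = 0.00660). Interleukin against hydrogen peroxide gave 0.38 (adjusted p = 0.171), and the changes against vehicle share the vehicle arrays.

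The interleukin call of Foxd1 was lost without vehicle array 1 (adjusted p = 0.204), vehicle array 2 (0.0739), interleukin array 1 (0.0915) or interleukin array 2 (0.0556). Its hydrogen peroxide call was lost without vehicle array 1 (0.0834) or hydrogen peroxide array 1 (0.0534). Foxc1, a forkhead factor of mesenchyme, had log2 changes of -0.33 with interleukin (adjusted p = 0.219) and -0.51 with hydrogen peroxide (adjusted p = 0.102). It was called with interleukin without interleukin array 1 (0.0457), and with hydrogen peroxide without interleukin array 1 (0.0420) or array 2 (0.0419). Tbx18, a T-box factor of mural cell precursors, gave 0.24 (adjusted p = 0.294) and 0.15 (adjusted p = 0.597) in the same order of treatments.

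Hydrogen peroxide thus changed 2 of the 30 genes, Crip1 and Foxd1, both lower. That is 6.67% of the tested members, against 6.99% of all tested genes (4.08% higher and 2.91% lower), a share near the background. Among genes at least as bright as the median member 10.6% were called with hydrogen peroxide, against 1 of the 15 members above that level. At an unadjusted limma p under 0.05, 4 members were higher and 8 lower, but the share of all genes at that level was not computed. The median log2 change was -0.0042 over the members and 0.06 over all genes. The count depended on single arrays. It was 0 higher and 0 lower without vehicle array 1, and 0 higher and 1 lower without vehicle array 2, hydrogen peroxide array 1 or hydrogen peroxide array 2. Without interleukin array 1 it was 2 higher (Acta2 and Myl9) and 5 lower, and without interleukin array 2 it was 2 higher and 4 lower, because those arrays enter the shared estimate of spread.

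Interleukin set directly against hydrogen peroxide, a comparison that uses no vehicle array for its difference, called Pdgfra and Pdgfrb higher and Crip2 lower. These are 3 of the 30 members, or 1 in 10, against 10.4% of all tested genes (6.3% higher and 4.06% lower). Among genes at least as bright as the median member 15.4% were called, against 2 of the 15 members above that level. The other 10 genes called with interleukin against vehicle were not called here, with log2 changes from -0.30 (Vcl, adjusted p = 0.144) to 0.64 (Tagln, adjusted p = 0.264). A difference between the treatments was therefore not shown for those genes, and it was not shown to be absent.

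Other probe sets of the same genes gave a second reading within the same arrays. Of the 30 genes 16 had more than 1 tested probe set, with 31 besides the brightest. For interleukin against vehicle, where 16.1% of all tested probe sets were called, 5 of these 31 were called higher and 3 lower. The second probe set of Pdgfrb gave 0.61 ± 0.13 (adjusted p = 0.00893), close to the 0.56 of the brightest. The second of Csrp1 gave -0.58 ± 0.09 (adjusted p = 0.00151) and that of Vcl -1.04 ± 0.19 (adjusted p = 0.00405), both lower like the brightest and larger in size. With hydrogen peroxide the second probe set of Csrp1 was called lower too, at -0.51 ± 0.09 (adjusted p = 0.00902), where the brightest was not called.

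Within Pdgfra, Cald1, Tpm2, Actn1 and Synpo2 the probe sets differed in their calls. Pdgfra had one at 0.97 ± 0.14 (adjusted p = 0.00126) and another at -0.22 ± 0.15 (adjusted p = 0.355), and that other probe set was lower with hydrogen peroxide, at -0.67 ± 0.15 (adjusted p = 0.0264). Cald1 had 2 more called higher with interleukin, at 0.34 (adjusted p = 0.0468) and 0.79 (adjusted p = 0.0158), and 1 at 0.04 (adjusted p = 0.957). One of them was also higher with hydrogen peroxide, at 0.42 ± 0.10 (adjusted p = 0.0406), where the brightest was not called. The 3 other probe sets of Tpm2 were not called, at -0.02 (adjusted p = 0.948), 0.32 (0.0850) and 0.56 (0.0820). Actn1 was called through a second probe set, at 0.59 ± 0.14 (adjusted p = 0.0177), and not through its brightest, at 0.22 ± 0.09 (adjusted p = 0.130). Synpo2 had its dimmest tested probe set at 58.4 and 137.2 with interleukin, 193.6 and 289.0 with hydrogen peroxide, and 475.3 and 538.0 with vehicle, and it was called lower (adjusted p = 0.00428), while its 3 brighter ones were not called. Both of its interleukin arrays were below 193.7 and it was tested through its vehicle arrays, so its fitted log2 change of -2.50 ± 0.45 is set against a dim group.

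**Figure D4:**
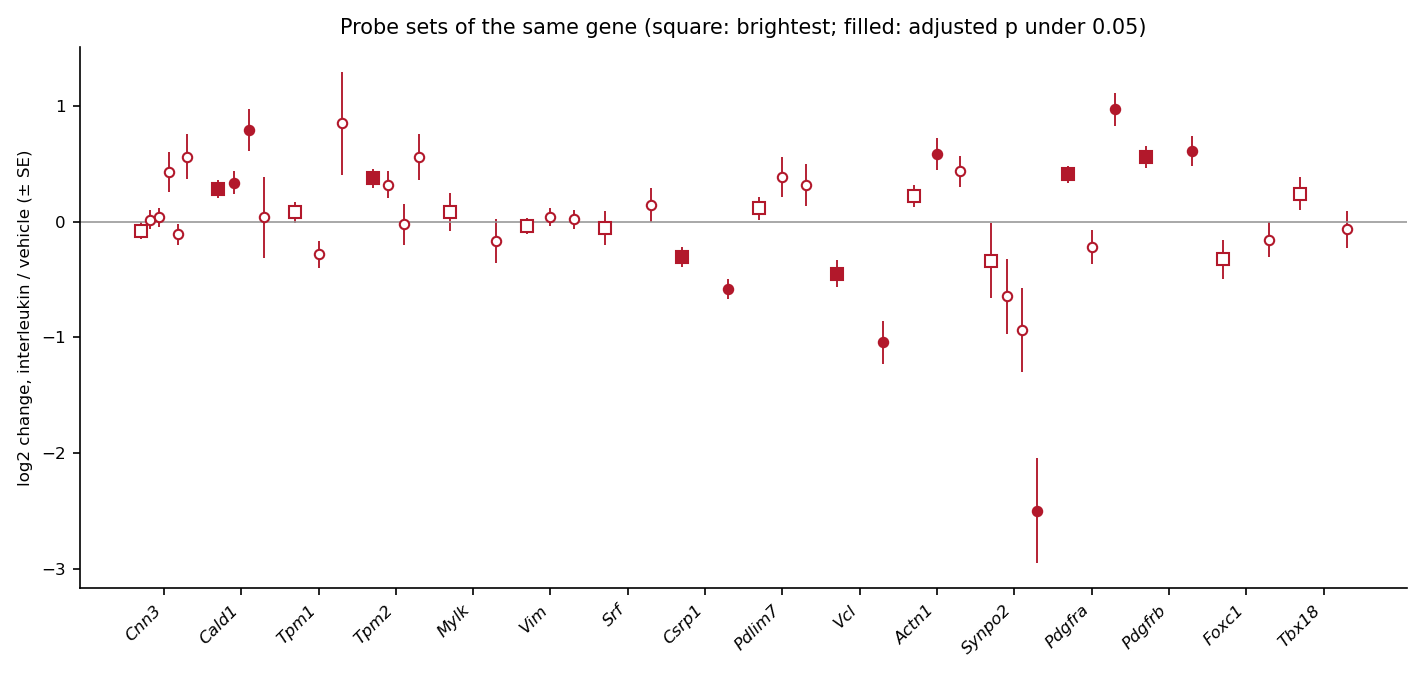
Fitted log2 change with standard error, interleukin over vehicle, of every tested probe set of the 16 genes with more than 1, with a square for the brightest, circles for the others in order of falling signal, and filled symbols for those called. Both probe sets of Pdgfrb, Csrp1 and Vcl are filled on the same side of 0, and the filled circle of Synpo2 is at -2.50.

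Beyond the 38 genes, 45 tested genes of actomyosin and focal adhesions held 10 called higher and 6 lower with interleukin (35.6%, median log2 change 0.06), against the 16.4% of all genes. This list and those below were also chosen with earlier results of these data known. The 4 with the largest changes were Itga8, an integrin of mesangial and smooth muscle cells (-1.47, adjusted p = 0.000391), Itga7, a laminin-binding integrin of muscle (0.82, adjusted p = 0.0240), Filip1l, which binds filamin (0.71, adjusted p = 0.00999), and Zyx, the focal adhesion protein zyxin (0.67, adjusted p = 0.00109). Itga8 gave 797.1 and 608.0 with interleukin, 994.5 and 1102.9 with hydrogen peroxide, and 1994.2 and 1877.8 with vehicle. Its groups did not overlap. Itga8 and Zyx were called without each array in turn. Itga7 lost its call without vehicle array 1 (adjusted p = 0.0741), vehicle array 2 (0.162), interleukin array 1 (0.108) or interleukin array 2 (0.0502), and Filip1l without vehicle array 1 (0.0862) or interleukin array 1 (0.0571).

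Of 23 tested regulators of the smooth muscle programme, 3 were higher and 2 lower with interleukin (21.7%), against 16.4% of all genes. Prrx1, a homeobox factor of mesenchyme, gave 18235.4 and 15692.9 with interleukin, 7842.9 and 8549.1 with hydrogen peroxide, and 7586.8 and 8194.4 with vehicle. It was high on the interleukin arrays alone, with a log2 change of 1.10 ± 0.10 against vehicle (adjusted p = 8.34e-05) and 1.05 ± 0.10 against hydrogen peroxide (adjusted p = 0.00015). Klf4, a repressor of smooth muscle genes, gave 6511.3 and 6564.7 with interleukin, 10690.3 and 10683.9 with hydrogen peroxide, and 13258.7 and 12118.3 with vehicle, with log2 changes of -0.96 ± 0.09 (adjusted p = 8.88e-05) against vehicle and -0.71 ± 0.09 (adjusted p = 0.000855) against hydrogen peroxide. All 4 calls were kept without each array in turn. Notch3, a receptor of mural cells, was higher (1.05, adjusted p = 0.00815) and lost its call without vehicle array 1 (0.0722), interleukin array 1 (0.0564) or probe sets of shared sequence (0.646). Gata6, a factor of vascular smooth muscle, was lower (-0.67, adjusted p = 0.00494) and lost its call without vehicle array 2 (0.0600).

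Among 30 other tested pericyte and renal stromal genes, 2 were higher and 2 lower with interleukin (13.3%), beside 16.4% of all genes. Pdgfa, a ligand of the alpha receptor, gave 502.5 and 444.9 with interleukin, 510.6 and 438.5 with hydrogen peroxide, and 147.4 and 226.3 with vehicle, with a log2 change of 1.37 ± 0.30 (adjusted p = 0.0119). Its vehicle mean of 187 was below the 193.7 used for testing, so it passed through the treated groups, and the call was lost without vehicle array 1 (adjusted p = 0.0939) or interleukin array 1 (0.0654). Crabp1, which binds retinoic acid, was higher (0.78, adjusted p = 0.00453). The homeobox gene Meis1 was lower (-0.93, adjusted p = 0.00439), a call lost without vehicle array 1 (log2 change -0.87). Read without probe sets of shared sequence, Meis1 was not called either (-0.43, adjusted p = 0.381). Twist2, a factor of mesenchyme, was lower (-0.52, adjusted p = 0.0258), lost without vehicle array 1 (0.115), vehicle array 2 (0.150) or interleukin array 1 (0.119).

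With hydrogen peroxide the same lists held 2 higher and 3 lower of 45, 1 higher and 2 lower of 23, and 1 higher and 3 lower of 30, beside 6.99% of all genes. Kcnj8, the pore of the ATP-sensitive potassium channel of mural cells, gave 1594.8 and 2521.9 with interleukin, 849.6 and 671.8 with hydrogen peroxide, and 2405.1 and 2326.6 with vehicle. It was low on the hydrogen peroxide arrays alone, with a log2 change of -1.65 ± 0.21 (adjusted p = 0.00255). Abcc9, the channel's regulatory subunit, was lower too (-0.91, adjusted p = 0.0415). Notch3 was higher (1.51, adjusted p = 0.00398), and Palld, the actin scaffold palladin (-0.86, adjusted p = 0.00125), and Myh9, a non-muscle myosin heavy chain (-0.80, adjusted p = 0.000569), were lower. The calls of Kcnj8, Notch3, Palld and Myh9 were kept without each array in turn and were all lost without the variance trend (adjusted p from 0.0646 to 0.0740). Read without probe sets of shared sequence, Notch3 (0.351) and Myh9 (0.116) were not called either.

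Among the other genes named with hydrogen peroxide, Pdgfa (1.37, adjusted p = 0.0267) and Ablim1, an actin-binding LIM protein (0.79, adjusted p = 0.0440), were higher. Itga8 (-0.89, adjusted p = 0.0186), the zinc finger factor Klf2 (-0.56, adjusted p = 0.0371) and Gata6 (-0.51, adjusted p = 0.0419) were lower. These 5 genes and Abcc9 each lost the call when any vehicle or hydrogen peroxide array was left out, with adjusted p from 0.0504 to 0.265. S100a4, a calcium-binding protein of fibroblasts (-0.62, adjusted p = 0.00576), lost it without vehicle array 1 (0.0550) or array 2 (0.0564).

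Directly between the treatments, the lists held 3 higher and 1 lower of 45, 2 higher and 1 lower of 23, and 4 higher and 0 lower of 30, beside 10.4% of all genes. Prrx1 was higher and Klf4 lower with interleukin, as given above. Interleukin also gave more signal than hydrogen peroxide for Kcnj8 (1.41, adjusted p = 0.00235) and Klf2 (0.71, adjusted p = 0.00803). It gave less for Flnc, a muscle filamin (-0.73, adjusted p = 0.00264). These calls were kept without each array in turn. The other 6, all higher with interleukin, were Crabp1 (0.57), Lima1, an actin-bundling LIM protein (0.46), S100a4 (0.44), Parva, a partner of integrin-linked kinase (0.43), Snai2, a factor of mesenchyme (0.31), and Myh9 (0.30), at adjusted p from 0.0170 up to the threshold of 0.05. Without hydrogen peroxide array 2 none of these 6 was called, at adjusted p from 0.131 to 0.249, and each but S100a4 also lost the call without vehicle array 1 (0.0586 to 0.0852) or vehicle array 2 (0.0591 to 0.0842). Leaving out hydrogen peroxide array 1, interleukin array 1 or interleukin array 2 ended at least 3 of the 6 calls in each case, at adjusted p from 0.0502 to 0.211.

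**Figure D5:**
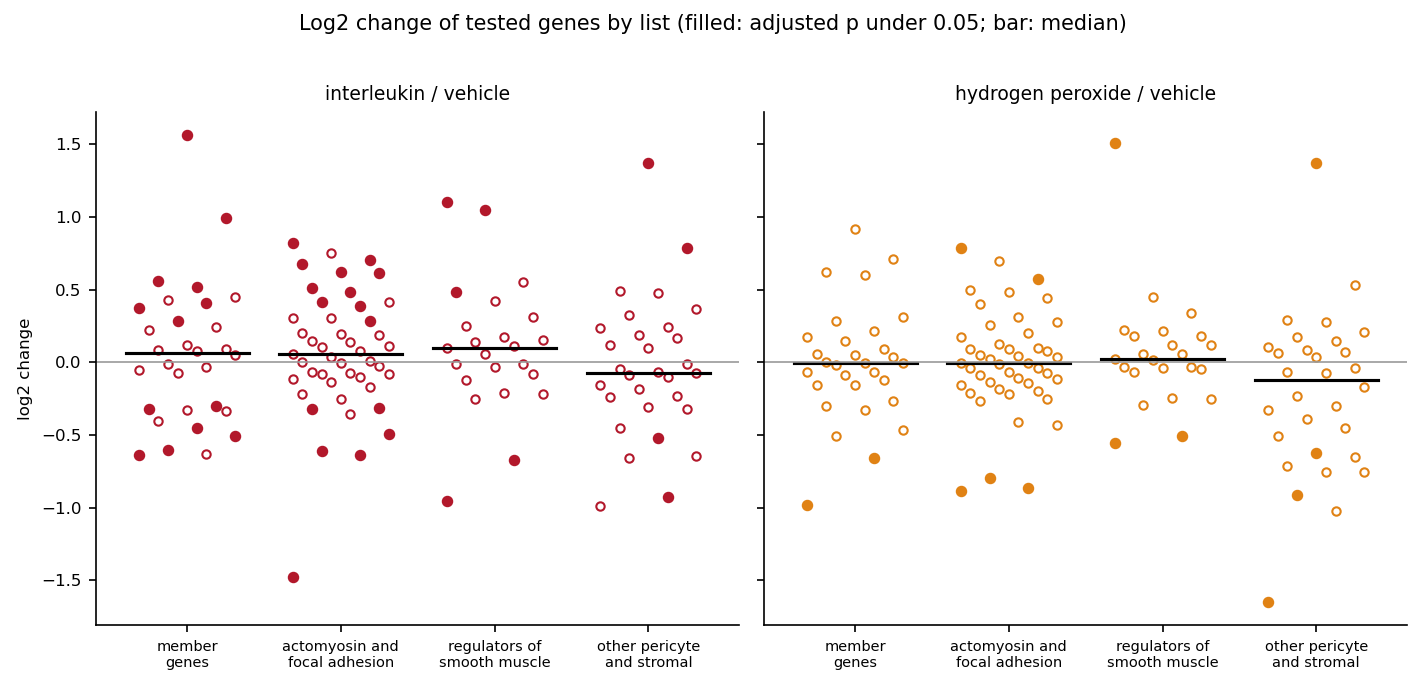
Fitted log2 change of each tested gene in 4 lists for interleukin over vehicle (left) and hydrogen peroxide over vehicle (right), with filled points for called genes and a black bar for the list's median. With interleukin the medians of the lists lie between -0.07 and 0.10 while single genes reach -1.47 and 1.56.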

How the data were processed

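RNA from 6 cultures of As4.1 cells was hybridised to Affymetrix Mouse Genome 430 2.0 arrays, 2 for each of the 3 groups named in the labels. The deposited table holds MAS5 signal intensity per probe set, per the submitters' processing notes. A version was not given in the sources used here. The 2% trimmed mean of the deposited intensity was 1500.01 on every array. Precision is limited by the number of arrays. Detection calls were not used.

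From these values, 64 control probe sets were left out and log2 was taken with no pseudocount. Of 45037 probe sets, the 22519 at or above the median of mean log2 signal (lowest geometric mean 193.7) were fitted with limma 3.58.1 in R 4.3.3 over all 6 arrays, with empirical Bayes moderation and a trend of variance on signal. P-values were adjusted by Benjamini-Hochberg over all tested probe sets, with a threshold of 0.05. The fit was tested on simulated data. A gene was read by its brightest probe set annotated to 1 gene, with symbols updated through gene identifiers (34945 probe sets had 1 symbol, 932 several and 9160 none). Percentages of all genes refer to the 10892 genes read in this way, and the share among bright genes was computed after the data were seen. Levels of different genes were not compared.

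Values are given for each array for genes called in a comparison and for a fixed set of defining genes. The text names at most 4 called genes of largest change per further list and comparison, and other genes where their calls differ between arrays or probe sets. The members and lists were chosen with earlier results of these data known. Alternatives were the normalization, pseudocount, filter, variance model, arrays fitted, replicate number as a block, probe sets used and leaving out each array. Figures were drawn with matplotlib 3.10.9 in Python 3.11.15.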

Additional observations from a re-analysis of the deposited data

How the results depend on the processing

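With 2 arrays a group, single arrays and the variance model decided most counts, and no called member reversed direction. As reported, 1708 probe sets were higher and 1919 lower for interleukin against vehicle, 686 and 596 for hydrogen peroxide against vehicle, and 1115 and 872 for interleukin against hydrogen peroxide. Without the variance trend these counts were 1003 and 780 (members 0 and 1), 45 and 12 (members lower 0), and 503 and 213 (members higher 1). Without probe sets whose names mark shared sequence, 18041 rather than 22519 were tested. The counts were then 1108 and 1232 (members higher 4), 384 and 365 (members higher 1), and 734 and 546. In that setting Parva, read by another probe set, reversed to -0.4526 for interleukin against vehicle and to -0.0345 against hydrogen peroxide. With 1 probe set per gene, 869 of 10892 were lower for interleukin against vehicle, where the main fit called 720 of the same genes lower. With hydrogen peroxide 2 members were higher and 4 lower in that setting. Without the filter 45037 were tested. Of these, 409 were higher and 353 lower for hydrogen peroxide against vehicle, and 556 were lower for interleukin against hydrogen peroxide. With only the 4 arrays compared, 2 members were higher and 5 lower for hydrogen peroxide, and 581 probe sets were lower for interleukin against hydrogen peroxide. After quantile normalization 1 member was higher with hydrogen peroxide (Tpm2). The other normalization, the pseudocount of 32 and the stricter filter kept every count within 1.5 times, though centring on the 75th percentile and the stricter filter moved calls of Csrp1.

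Leaving out each array in turn gave, for interleukin against vehicle, 891 to 1639 probe sets higher and 655 to 1970 lower, with 3 to 7 members higher and 0 to 6 lower. For hydrogen peroxide against vehicle it gave 154 to 950 and 88 to 817, with 0 to 2 and 0 to 5 members. For interleukin against hydrogen peroxide it gave 644 to 940 and 208 to 988, with 2 to 3 members higher and 1 lower. A lone array was assumed to vary like the other groups. The cause of these differences was not tested.

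The groups share replicate numbers, but same-numbered arrays did not deviate together (correlations of 0.1072 between vehicle and hydrogen peroxide, 0.0535 between vehicle and interleukin and -0.1291 between hydrogen peroxide and interleukin). With the replicate number as a block, 1599 probe sets were higher and 1743 lower for interleukin against vehicle (members 6 and 6), 624 and 546 for hydrogen peroxide against vehicle (members 1 and 2), and 1028 and 728 for interleukin against hydrogen peroxide (members 2 and 1). Mkl1 missed the threshold with the block (adjusted p = 0.05 after rounding), and Myl9 passed it with hydrogen peroxide (0.0460).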
